A study of Arabidopsis thaliana with 6 samples.

Results

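AT5G10040, AT4G10270, AT3G27220, AT3G10020 and AT3G61930 are 5 Arabidopsis genes that are counted among the core response to low oxygen although none has an assigned enzyme role. They were taken by gene number, out of 13286 genes with a probe set of their own here, and each had 1: 250464_at, 255807_at, 257153_at, 258939_at and 251293_at, in the same order. All 5 passed the filter on low values, as did 15922 of the 22746 probe sets that are not controls. They were picked with their change under anoxia already known, so their values between anoxia and air are given as a description, without a test.

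The arrays held RNA from whole Arabidopsis thaliana seedlings, ecotype Columbia glabra, kept dark at 23 °C during their first 4 days, on half-strength medium with no sugar added. Of the 3 groups, one then spent 6 h under anoxia with 90 mM sucrose, one 6 h under anoxia with no sucrose, and one 6 h in air with no sucrose. Each group had 2 arrays, one for each of 2 experiments, and the RNA on an array was a pool from 4 seedling cultures. The p-values below therefore measure a spread between pools. With 2 pools in a group, that spread was estimated over all 3 groups and drawn in part from other probe sets. In such whole-seedling RNA, fewer cells of a type and less RNA per cell cannot be told apart.

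When oxygen falls, plants turn from respiration to fermentation and switch on a small set of genes in nearly every cell type. In air, enzymes called plant cysteine oxidases oxidise the start of the group VII ERF transcription factors, which are then degraded. Without oxygen these factors persist and bind the promoters of genes such as those for alcohol dehydrogenase, pyruvate decarboxylase and haemoglobin. Genes that respond alongside them but whose proteins have no known activity make up much of the same set. AT4G10270 belongs to a family of small proteins first noted for their response to wounding, and AT3G27220 codes for a protein with kelch repeats, folds that usually bind other proteins. AT5G10040, AT3G10020 and AT3G61930 code for proteins without an assigned function.

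Signals are given first as deposited, in linear intensity units, and then on a log2 scale, as log2(signal + 16) relative to the median of the array. The addition of 16 keeps dim signals from dominating and understates changes of dim genes. The arrays were not on a common scale: median signals were 21.2 and 50.6 with sucrose, 45.3 and 32 under anoxia and 46.2 and 30.8 in air, for experiments 1 and 2. In experiment 1 the array with sucrose had a 3' actin control that read 21.6 times its 5' counterpart, against 1.70 to 4.24 times on the other 5 arrays, a sign of RNA quality. Brightness also depends on the oligonucleotides of a probe set, so no order of abundance between genes is read from it. As a check of the labelled dark-grown seedlings, PORB, the protochlorophyllide reductase of etiolated and greening plastids, read 522.3 and 3486 with sucrose, 2004 and 2643 under anoxia and 2812 and 1507 in air. LHCB4.1, a light-harvesting protein, read between 1499 and 5114 over the 6 arrays, so a marker of green plastids was bright as well. Markers of root hairs (EXPA18), stomata (FMA) and dividing cells (AUR1) passed no test between groups, and those of seed reserves had no matched probe set.

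The first question was how far each gene differed between anoxia and air, and from which level in air. AT5G10040 was at the dim end of the scale in air and bright under anoxia. Its signal was 2127 and 615.5 on the anoxia arrays of experiments 1 and 2, against 4.5 on both air arrays. The groups lay far apart, and both air values were under the 16 that was added, where no detection call says whether anything was measured, so the gene passed the filter on low values through the arrays under anoxia. On the log2 scale it averaged 4.42 ± 1.00 under anoxia and -1.40 ± 0.29 in air (SD, n = 2 each), a difference of 5.82 ± 0.70 (SE of the limma fit). The ratio of the raw signals was 473 in experiment 1 and 137 in experiment 2. With so dim a baseline the size depended on the number added, and the log2 difference was 7.69 with 1 in place of 16 and 4.15 with 64. Among the 15922 probe sets it ranked 2nd from the top.

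AT4G10270, of the wound-responsive family, read above the array median on both air arrays and had nearly the same log2 increase in both experiments. It read 2666 and 1344 under anoxia, against 99.8 and 35.2 in air. Neither group came near the other, and experiment 1 was the higher of both pairs. The log2 averages were 5.14 ± 0.44 under anoxia and 0.51 ± 0.54 in air (SD, n = 2 each), a difference of 4.62 ± 0.71 (SE), or 24.7-fold. Within experiments the log2 difference was 4.55 and 4.69, the closest match between experiments of the 5 genes. The ratio of the raw signals was 26.7 in experiment 1 and 38.2 in experiment 2. With 1 as the number added to each signal the log2 difference was 4.96, and with 64 it was 3.94.

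AT3G27220, the kelch repeat gene, read 785.4 and 230.8 under anoxia, against 28.8 and 15.5 in air. The groups did not overlap, and the anoxia array of experiment 1 stood well above that of experiment 2. On the log2 scale it averaged 3.04 ± 0.95 under anoxia and -0.52 ± 0.07 in air (SD, n = 2 each). The difference was 3.56 ± 0.52 (SE), or 11.8-fold, with 4.18 in experiment 1 and 2.93 in experiment 2. Since its air values were near the 16 that was added, the size depended on that number, and the log2 difference was 4.25 with 1 in its place and 2.54 with 64.

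AT3G10020 had a clear signal on all 6 arrays and a smaller difference between anoxia and air. Its signal was 2378 and 982.1 under anoxia, against 799 and 759.9 in air. The groups did not overlap, but the lower anoxia array was close to the air arrays. Its log2 averages were 4.83 ± 0.64 under anoxia and 3.88 ± 0.24 in air (SD, n = 2 each). The difference of 0.95 ± 0.56 (SE), or 1.93-fold, was made up of 1.58 in experiment 1 and 0.33 in experiment 2. Without the anoxia array of experiment 1 it was 0.50, and without that of experiment 2 it was 1.41.

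AT3G61930 stood the other way, lower under anoxia than in air, although it is listed with the core hypoxia genes. It read 37.4 and 24.5 under anoxia, against 194.2 and 44.4 in air. The groups did not overlap, and the air array of experiment 1 was far above the other 3. The log2 averages were -0.22 ± 0.03 under anoxia and 1.06 ± 0.98 in air (SD, n = 2 each), a difference of -1.28 ± 0.52 (SE), or 0.411-fold. It was -1.96 in experiment 1 and -0.61 in experiment 2. Leaving out the air array of experiment 1 left -0.59, and leaving out that of experiment 2 gave -1.98, so the size rested on which air array was used.

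**Figure D1:**
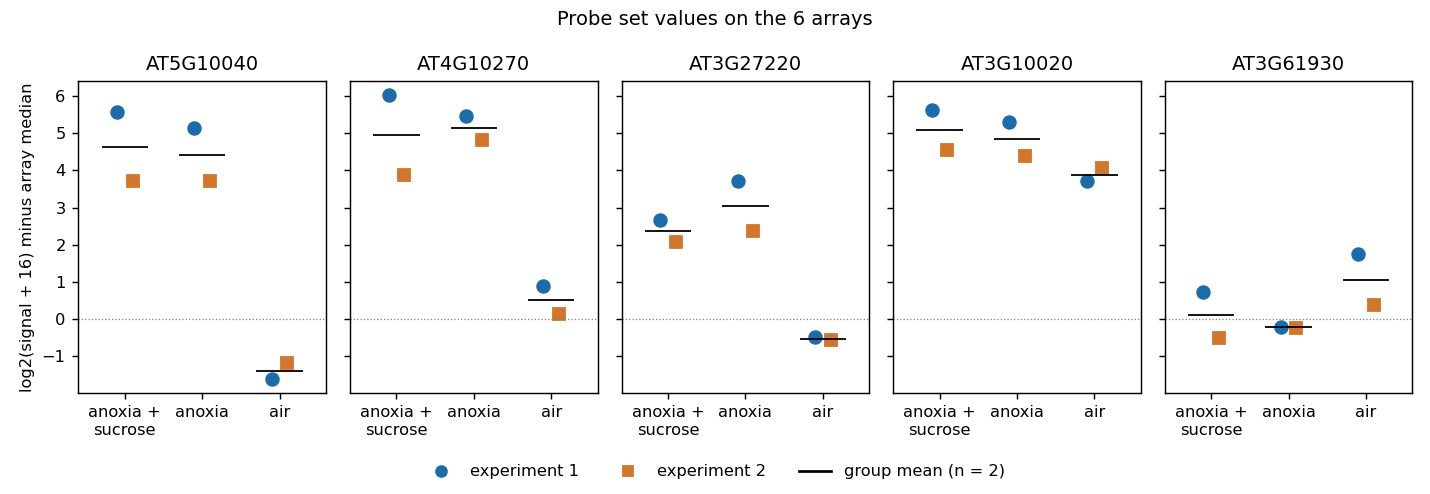
Values of the 5 genes on each array, as log2(signal + 16) minus the array median, with anoxia plus sucrose, anoxia and air from left to right; circles are experiment 1, squares experiment 2 and lines the group means (n = 2). AT5G10040 averaged 4.42 under anoxia and -1.40 in air, AT3G10020 4.83 and 3.88, and AT3G61930 -0.22 and 1.06.

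In all, 4 of the 5 genes were higher under anoxia with no overlap between groups, where 18.9% of all tested probe sets were, and 1 was lower with no overlap, where 14.9% were. The genes were chosen on this contrast, so nothing is read from these counts. The differences ranged from 5.82 for AT5G10040 down to -1.28 for AT3G61930. In 4 of the 5 genes the difference was the larger one in experiment 1, AT4G10270 being the exception. For AT3G61930 the larger one was a decrease from the high air array of experiment 1. The share of all probe sets with a larger difference in experiment 1 was not computed, so nothing is read from this count.

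The second question was what sucrose did to these genes during anoxia, the one comparison of the set that was tested here. It shares its anoxia arrays with the contrast on which the genes were chosen. None of the 5 genes passed the test. AT5G10040 read 1734 and 858.1 with sucrose, against 2127 and 615.5 under anoxia alone, in experiments 1 and 2. The ranges lay within each other, and its log2 difference was 0.21 ± 0.70 (SE), with a 95% interval of -1.35 to 1.77, which is 0.393-fold to 3.41-fold. AT4G10270 read 2399 and 963 with sucrose, against 2666 and 1344 under anoxia. Its 2 sucrose arrays were farther apart than its anoxia arrays, and the difference was -0.19 ± 0.71 (interval -1.77 to 1.40).

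AT3G27220 gave the lowest of the 5 estimates. It read 219.4 and 266.4 with sucrose, against 785.4 and 230.8 under anoxia, so that the anoxia array of experiment 1 alone stood apart in raw signal. The log2 difference was -0.66 ± 0.52 (interval -1.83 to 0.51), with -1.05 in experiment 1 and -0.28 in experiment 2. Without the anoxia array of experiment 1 it was 0.01. AT3G10020 read 1806 and 1544 with sucrose, against 2378 and 982.1 under anoxia, and its difference was 0.25 ± 0.56 (interval -0.99 to 1.49). AT3G61930 read 45.5 and 30.9 with sucrose, against 37.4 and 24.5 under anoxia. Its difference was 0.33 ± 0.52 (interval -0.82 to 1.49), with 0.92 in experiment 1 and -0.26 in experiment 2.

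By limma, with Benjamini-Hochberg adjustment over all 15922 probe sets, 0 of the 5 genes passed, and each had an adjusted p = 1. Over all probe sets 0% were called, so the count of members equals the background. Unadjusted p-values of the 5 lay between 0.235 and 0.796, and 161 of all probe sets had one under 0.05. With the experiment number as a block, 0 of the 5 passed again (unadjusted p of 0.116 to 0.687 by limma), while 3 probe sets in all, or 0.0188%, were called. The intervals are wide, and those of all 5 genes hold both 0 and a change of more than 1.5-fold in at least one direction, so similar levels with and without sucrose were not shown. After median centring the 2 experiments had opposite signs for AT5G10040, AT4G10270 and AT3G61930, though for AT5G10040 the value in experiment 2 was -0.0035. On signals as deposited the ratio of sucrose to anoxia was 0.900 and 0.717 for AT4G10270 and 1.22 and 1.26 for AT3G61930, the same way in both experiments. It was 0.815 and 1.39 for AT5G10040, 0.279 and 1.15 for AT3G27220 and 0.759 and 1.57 for AT3G10020, opposite ways, so the agreement of experiments turned with the scaling. The sucrose array of experiment 1 was the one with the high actin ratio, and the part of RNA quality in these differences was not tested. Without that array the 5 differences were -0.71, -1.26, -0.95, -0.28 and -0.28, in the order of the intervals above, and none passed.

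**Figure D2:**
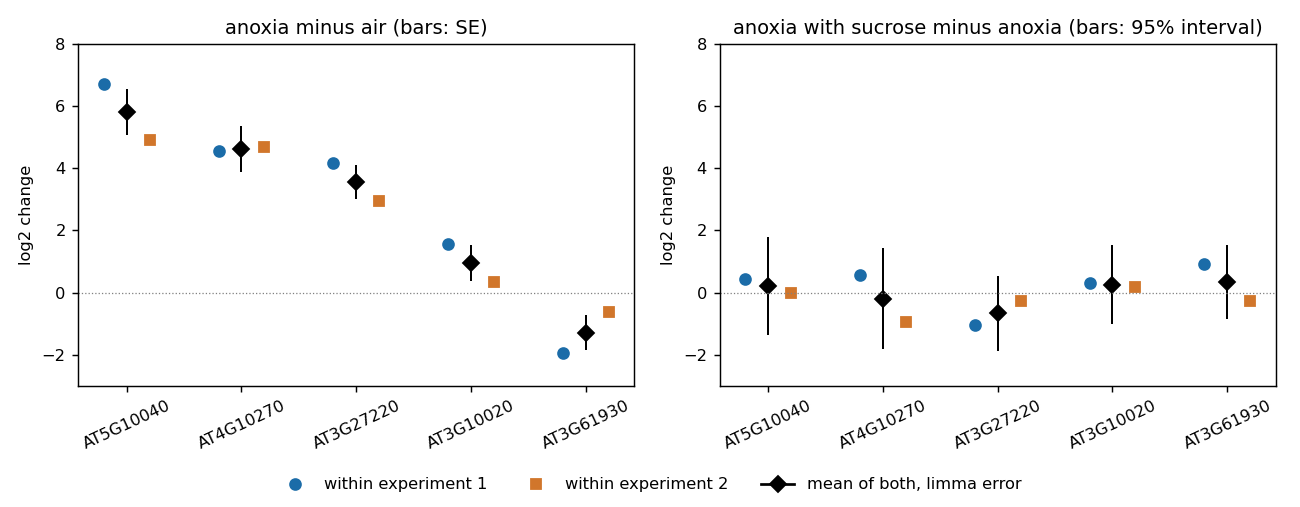
Log2 changes of the 5 genes for anoxia minus air (left, bars are the SE) and anoxia with sucrose minus anoxia (right, bars are the 95% interval of limma); diamonds are the mean of both experiments, circles experiment 1 and squares experiment 2. The left panel runs from 5.82 for AT5G10040 to -1.28 for AT3G61930, and in the right panel all 5 intervals include 0.

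Set against air, the seedlings given sucrose under anoxia showed the same 4 genes higher without overlap, and here too nothing is read from the count, because the air arrays are those of the first contrast. For this contrast 18.7% of all probe sets were higher without overlap. The differences were 6.03 ± 0.70 for AT5G10040, 4.44 ± 0.71 for AT4G10270, 2.90 ± 0.52 for AT3G27220 and 1.20 ± 0.56 for AT3G10020 (SE). For AT3G61930 the difference was -0.95 ± 0.52, and its groups overlapped, since its sucrose array of experiment 1 lay above its air array of experiment 2. That sucrose array was the one with the high actin ratio, and the part of RNA quality was not tested. Without it these differences were 5.11, 3.36, 2.61, 0.67 and -1.57, in the order given here, and the groups of AT3G61930 no longer overlapped.

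The gap between experiments 1 and 2 for these genes depended in part on how the arrays were scaled. With sucrose it also compared an array whose 3' actin control read 21.6 times its 5' counterpart with one at 1.70 times. The median gap of the 5 genes was 1.23 with sucrose and 0.91 under anoxia, against 0.10 in air, on the log2 scale. Relative to the array median, 5 of 5 genes were higher in experiment 1 with sucrose and 5 of 5 under anoxia, against 3 of 5 in air. Quantile normalization gave the same counts, and a common trimmed mean gave 5, 4 and 3. On signals as deposited they were 4 with sucrose, 5 under anoxia and 4 in air, so that the counts with sucrose and in air did not differ. Without scaling, however, the median gap of all tested probe sets was -0.84 with sucrose, 0.49 under anoxia and 0.48 in air. The equal counts thus stand against unlike backgrounds. Relative to the array median, 49.8% of all tested probe sets were higher in experiment 1 with sucrose, 58.7% under anoxia and 54.6% in air. The gap for AT5G10040 was 1.84 with sucrose and 1.41 under anoxia, against -0.41 in air. AT4G10270 had a gap of 2.14 with sucrose and 0.63 under anoxia, against 0.77 in air. For AT3G10020 it was 1.06 and 0.91 in the same 2 groups, against -0.34 in air. AT3G61930 had its widest gap in air, at 1.39, and one of 0.05 under anoxia.

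The same gap was computed for the other core hypoxia genes. A list of 42 of them was used, of which 20 had a matched probe set and were tested, while the other 22 are not analysed here. Of these 20 genes, 20 were higher in experiment 1 with sucrose, 20 under anoxia and 12 in air, with median gaps of 1.56, 1.04 and 0.08. The median gap over all tested probe sets was -0.0046, 0.13 and 0.07 in the same groups. Under quantile normalization the 3 counts were 20, 19 and 10, and after scaling to a common trimmed mean 20, 19 and 9. On signals as deposited they were 18, 20 and 15, where the median gap of all tested probe sets was -0.84, 0.49 and 0.48. There is 1 array for each group and experiment, so an array and its experiment cannot be told apart. With sucrose, the array of experiment 1 was the one with the high actin ratio. The part of RNA quality in these gaps was not tested.

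**Figure D3:**
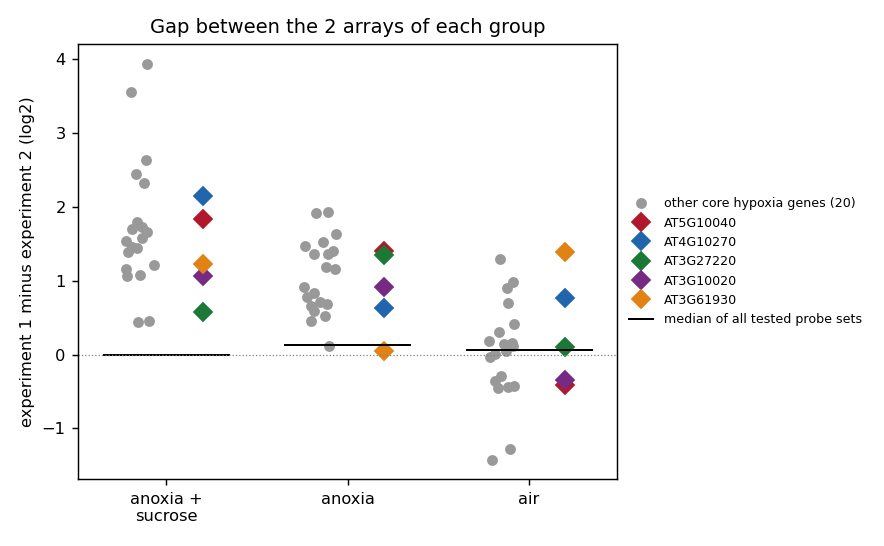
Experiment 1 minus experiment 2, in log2 units, for the 5 genes (coloured diamonds) and the 20 other core hypoxia genes (grey points) in anoxia plus sucrose, anoxia and air; the black line is the median of all tested probe sets. The grey points have medians of 1.56, 1.04 and 0.08, and 20, 20 and 12 of them lie above 0.

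For the pathway around the members, 2 of the 20 other core hypoxia genes rose under anoxia against air and 0 fell (limma, adjusted over all probe sets). Of all probe sets, 0.107% were called higher and 0.126% lower. With the experiment number as a block, 12 of the 20 rose and 0 fell, against 0.961% and 1.58% of all probe sets. The list was chosen with earlier results of these data known, so these counts are no independent evidence of its direction. The number of calls also hung on single arrays. It was lower without an air or anoxia array and higher without a sucrose array, here as over all probe sets. Their median log2 change was 1.94, against 0.08 for all probe sets, and 18 of 20 lay above 0, where 57.5% of all probe sets did. CML38, a calmodulin-like calcium sensor, read 1409 and 799.9 under anoxia, against 23.5 and 24.1 in air, and rose by 4.75 ± 0.61 on the log2 scale (SE, adjusted p = 0.0206 by limma). AT3G10040, a trihelix transcription factor that restrains the ERF factors, read 480.6 and 158.4 under anoxia, against 8.5 and 7.7 in air, and rose by 3.60 ± 0.57 (adjusted p = 0.0437 by limma). Both of its air values were under the 16 that was added, so it passed the filter on low values through the arrays under anoxia. The same holds for AT4G24110, at 3.4 and 1.9 in air, and AT4G33560, at 10 and 2.1. Those genes are among the 12 called with the block, and nothing is read from their calls. With sucrose against anoxia, 0 of the 20 passed with or without the block by limma, 0 had an unadjusted p under 0.05 without it, and the median was -0.11. Of all probe sets, 0% passed without the block and 0.0188% with it, and 1.01% had an unadjusted p under 0.05 without it. The counts of the 20 are near these shares, so nothing about the core genes is read from them. A list of 12 genes of oxygen sensing, which includes plant cysteine oxidases, ERF factors and enzymes that degrade them, is not analysed here.

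The wound-responsive family of AT4G10270 gave values on both sides of 0. Of 5 relatives on the list, 3 had a matched probe set. AT4G33560 read 607.5 and 159.7 under anoxia, against 10 and 2.1 in air. Its log2 difference was 3.92 ± 1.02 (SE), with adjusted p = 0.258 by limma and 0.000373 with the block. Both of its air values were below the number added to each signal. It thus passed the filter on low values through the arrays under anoxia. AT4G28240 read 224.2 and 126.2 under anoxia, against 632 and 683.3 in air. Its difference was -1.87 ± 0.48 with adjusted p = 0.251 by limma and 0.0209 with the block. AT4G05070 read 592.2 and 297.4 under anoxia, against 918.1 and 694.7 in air, a difference of -0.91 ± 0.52 (adjusted p = 0.977 by limma, and 0.422 with the block). So 1 relative, which is also on the list of other core hypoxia genes, was higher and 2 were lower under anoxia, each without overlap between groups, as were 18.9% and 14.9% of all tested probe sets. With sucrose against anoxia the 3 lay between -0.19 and -0.11, beside -0.19 for AT4G10270.

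The genes nearest to each member in pattern were found by the root mean square difference of log2 values over the 6 arrays, after each gene was set to its own mean, among 8689 other probe sets with 1 gene. For AT5G10040 these were CML38 at 0.59, AT4G10270 at 0.80 and AT2G17850, of the rhodanese family, at 0.92. For AT4G10270 they were AT3G03270, a universal stress protein, at 0.41, CML38 at 0.42 and AT2G17850 at 0.49. For AT3G27220 they were the trihelix factor AT3G10040 at 0.32, the pyruvate decarboxylase gene PDC2 at 0.35 and AT1G33055 at 0.47. These distances are set mostly by the change between anoxia and air on which the members were chosen, so nothing is read from which genes are nearest.

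The nearest to AT3G10020 were AT3G60910 at 0.13, AT2G17280 at 0.14 and AT3G17800 at 0.15, with anoxia minus air differences of 0.89, 1.01 and 1.00. AT3G60910, for example, read 336.2 and 315.3 with sucrose, 567.1 and 209.3 under anoxia and 183.4 and 173 in air. The nearest to AT3G61930 were AT5G67510 at 0.16, AT1G48330 at 0.20 and AT1G23050 at 0.21, with differences of -1.25, -1.63 and -1.14. AT5G67510, which codes for a protein of the large ribosomal subunit, read 272.6 and 219.3 with sucrose, 235 and 164.7 under anoxia and 767.3 and 306 in air. It shares with AT3G61930 the high air array of experiment 1. Distances are smaller for patterns of small amplitude, so they are not compared between members. The distance between AT5G10040 and AT3G61930 themselves was 3.39, and that between AT4G10270 and AT3G27220 was 0.84.

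**Figure D4:**
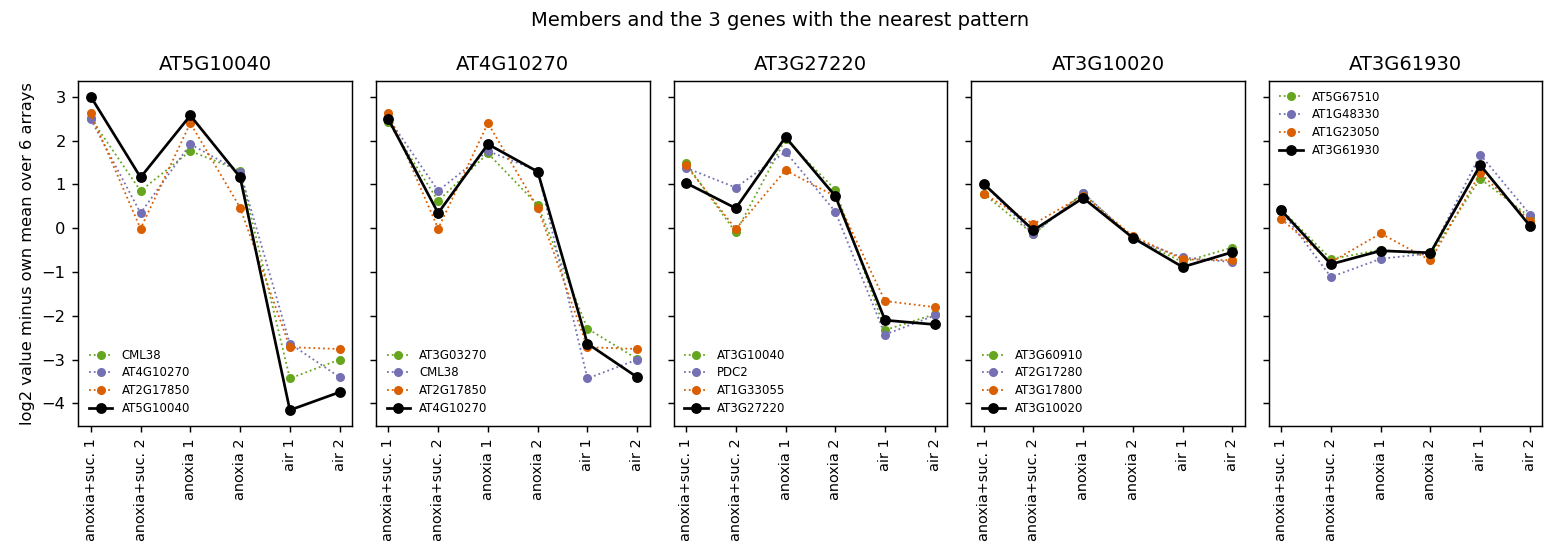
Log2 values of each of the 5 genes (black) and of the 3 genes nearest in pattern (coloured, dotted) over the 6 arrays, each set to its own mean; arrays run from anoxia plus sucrose through anoxia to air, with experiment numbers. For AT5G10040 the nearest was CML38 at a root mean square difference of 0.59, and for AT3G61930 it was AT5G67510 at 0.16.

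Position in the genome gave 1 other core gene beside a member. AT3G10020 on chromosome 3 has AT3G10040, the trihelix factor described above, as its second neighbour, with AT3G10030 between them. AT3G10030 read 176.7 and 120.2 under anoxia, against 83.7 and 105.3 in air, a difference of 0.55 ± 0.43 (SE, adjusted p = 1 by limma). The differences of the 3 genes in row were thus 0.95, 0.55 and 3.60 for anoxia minus air, and 0.25, -0.65 and -0.77 for sucrose minus anoxia, each sucrose value with an adjusted p = 1 by limma. The 4 nearest neighbours of AT3G27220 lay between -1.01 and 0.71 and none passed by limma with or without the block. Beside AT4G10270, AT4G10280 was at -0.59 ± 0.38 (adjusted p = 1 by limma), AT4G10260 was too dim to be tested, and AT4G10265, a relative, had no matched probe set. Whether the probe set of AT4G10270 also reads that relative was not tested. The neighbours of AT3G61930 that had a probe set, 3 in all, were too dim to be tested, and those of AT5G10040 had none matched.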

How the data were processed

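The values analysed are 22810 probe set signals per array, deposited as intensity on a linear scale, from targets prepared, per the labels, with standard Affymetrix methods. Which software, background correction and scaling the authors used is not given in the sources used here. The 64 control probe sets were dropped, and log2(signal + 16) was taken relative to the median of its array. The filter kept probe sets whose average reached the 30th percentile. The test was limma 3.58.1 (R 4.3.3) over all 6 arrays, with an intensity trend, two-sided, and Benjamini-Hochberg adjustment, with calls made under 0.05 (degrees of freedom: 3 residual and 6.97 from the prior). The steps were tested on simulated data, with independent noise for each array and no gap between experiments. That check was passed or failed only on whether the mean changes planted with sucrose were returned. Calls were counted as well, but with no gap between experiments they do not bear on the number of calls here. The number of arrays limits the precision.

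The titles call the numbers experiments, so these were taken to pair the arrays. The gap between replicates correlated across probe sets at r = 0.562 between anoxia with sucrose and anoxia, 0.392 between anoxia with sucrose and air, and 0.383 between anoxia and air. The fit without the experiment as a block is the main one.

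Names come from the platform annotation through the gene numbers of RefSeq's table for assembly TAIR10.1, which served for names and neighbours. That annotation gave 13513 probe sets 1 gene, 503 several and 8730 none. A gene without a matched probe set here may thus still be on the array. The members and lists were chosen with earlier results of these data known. Named are the 5 members, other core hypoxia genes that passed, the 3 genes nearest to each member in pattern, family relatives, and the 2 neighbours on each side. AT4G05070, AT4G28240 and AT4G33560 stand for a fixed family list, since a protein search and a motif search of promoters, both planned, were not run for want of sequences here. A list of reference genes, of which 2 of 8 had a matched probe set, had a median of 0.18 for anoxia minus air and 0.04 for sucrose minus anoxia. Alternatives were other pseudocounts, filters and scalings, no intensity trend, the block, fewer groups and leaving out each array.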

Additional observations from a re-analysis of the deposited data

How the results depend on the processing

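Directions of all 5 genes for anoxia minus air, and for anoxia with sucrose minus air, held under every alternative run (pseudocounts, filters, scalings, trend, block, fewer groups, each array left out). For anoxia minus air they ranged from 4.15 to 7.69 for AT5G10040, 3.94 to 5.01 for AT4G10270, 2.54 to 4.25 for AT3G27220, 0.50 to 1.41 for AT3G10020 and -1.98 to -0.59 for AT3G61930. For sucrose minus anoxia 0 of the 5 passed under any of them in limma, and the sign of AT5G10040 turned under quantile normalization (-0.026). Leaving out 1 array moved these differences between -0.71 and 1.13 for AT5G10040, -1.26 and 0.88 for AT4G10270, -1.34 and 0.011 for AT3G27220, -0.28 and 0.78 for AT3G10020, and -0.28 and 0.95 for AT3G61930. The number of the 5 genes that were lower with sucrose than in air without overlap was 0, and 0 to 1 with 1 array left out (1 without the air array of experiment 2 or the sucrose array of experiment 1). AT3G10040 and CML38 did not pass for anoxia minus air without any one of the air or anoxia arrays (adjusted p of 0.102 to 0.422 by limma). The 2 calls among the other core hypoxia genes became 0 with a pseudocount of 1, 6 with 64 and 9 without a filter. They became 1 under quantile normalization, 1 with a common trimmed mean, 7 without centring and 1 without the trend. With the experiment number as a replicate block they became 12, and with only the 2 groups compared 9. Over all probe sets, the 17 called higher became 1, 28, 40, 11, 11, 21, 7, 153 and 42, in the same order. Both counts also moved with each array left out. The cause was not tested. The block changed no other call given in the text beyond those printed with it. Signals below 16 made up 26.1% to 43.6% of an array, which limits what can be said of AT5G10040 and AT3G27220 in air.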
